A study of Mus musculus with 5 samples.

Results

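Cbln1-expressing reticular cells are marrow stromal cells that carry the transcript of cerebellin 1 together with a high level of Cxcl12. They were chosen here by counts of RNA molecules (UMIs, unique molecular identifiers, 1 per captured transcript). A cell had at least 500 genes, at least 1000 UMIs, a mitochondrial share under 25% and no Ptprc UMI, Ptprc being the pan-leukocyte gene. It also had at least 150 Cxcl12 UMIs per 10000, fewer than 2 Kit UMIs, fewer than 10 UMIs per 10000 of Ccl2, Ccl7 and Cxcl1 together, and at least 2 Cbln1 UMIs. This left 12039 Cbln1 cells among 47829 filtered cells, of 57968 deposited. The levels of Cbln1, Cxcl12, Kit, Ptprc and the 3 chemokines chose the cells, so their values are given as a description only. The cells that pass the Ptprc and Cxcl12 limits are called the Cxcl12 gate, with 26059 cells, and 14020 of them were not Cbln1 cells. Of these other gate cells, 9174 were also within the Kit and chemokine limits and had 0 or 1 Cbln1 UMI; they are called limit-matched cells.

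The cells came from femur marrow of mice with Lepr-cre and the R26R-tdTomato reporter, with the distal growth plates and the proximal bone ends removed, digested with enzymes and sorted for tdTomato. The aged-injury mice were 18 months old and 1 week past a bone marrow ablation, a surgery that empties the marrow cavity, and the aged mice were 18 months old and uninjured. The exhausted mice were 15 weeks old with ablations at 9 and at 13 weeks, the naive mice were 15 weeks old with 1 ablation at 13 weeks, and the control mice were 15 weeks old and uninjured. Lepr-cre labels every cell that has expressed the leptin receptor gene and all descendants of such a cell, so the sort takes in a lineage and not 1 cell state. Each group was 1 library of about 30000 loaded cells, and the labels do not state how many animals a library holds.

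Reticular cells of the marrow, also named Cxcl12-abundant reticular cells, line the sinusoids and secrete CXCL12 and stem cell factor (Kitl), which hold blood stem cells and B-cell precursors in place. They express Adipoq and Lpl, genes otherwise known from fat cells, and some can turn into preosteoblasts, which switch on Alpl, Sp7 and Spp1. Cerebellin 1 is a secreted protein of the C1q family, known from the cerebellum, where it helps to hold synapses together. Of the other genes taken here as markers of these cells, Grem1 and Chrdl1 encode secreted antagonists of bone morphogenetic proteins (BMPs). Adipoq encodes the hormone adiponectin and Gdpd2 encodes a membrane enzyme of the glycerophosphodiester phosphodiesterase family.

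The Cbln1 cells numbered 5981 in aged-injury, 1547 in aged, 898 in exhausted, 766 in naive and 2847 in control. Their median depth was 10109, 9076, 9524, 10673 and 10033 UMIs per cell in that library order, against 9959.5, 6942, 5859.5, 7229 and 7946 in all other gate cells and 8823, 5822.5, 4998.5, 6662 and 7260 in limit-matched cells. The Cbln1 cells were the deeper ones in every library, and on cells of at least 5000 UMIs alone the fits described below called 542 genes higher and 614 lower against limit-matched cells. Their median mitochondrial share of UMIs was lower in every library, at 5.31, 6.397, 6.09, 6.02 and 5.75%, against 5.52, 7.17, 7.20, 7.23 and 6.54% in all other gate cells and 6.12, 7.77, 7.60, 7.55 and 6.84% in limit-matched cells. The part of depth and of the mitochondrial share in the differences between arms was not tested beyond the versions of the fits named here and further down. Among blood cells (at least 1 Ptprc UMI and under 20 Cxcl12 UMIs per 10000), which should lack Cbln1, 2 or more Cbln1 UMIs were found in 0.9901% in aged-injury, 0% in aged (0 of 423 cells, where 3 cells, the limit used for a count of 0, would be 0.709%), 0.119% in exhausted, 0.110% in naive and 0.355% in control, at medians of 9985, 7498, 8467, 9004 and 9254.5 UMIs. Across all pairs of libraries 21 cell barcodes were shared, of which 2 were Cbln1 cells in both libraries. Doublets were not removed.

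Nearly every Cbln1 cell carried the marker genes of reticular cells, and so did most of the rest of the gate. A UMI of Adipoq was found in 99.7% to 100% of Cbln1 cells, of Gdpd2 in 98.7% to 99.3%, of Chrdl1 in 97.9% to 99.6% and of Grem1 in 95.1% to 97.1%, over the 5 libraries. In all other gate cells the ranges were 98.0% to 98.8% for Adipoq, 94.5% to 97.5% for Gdpd2, 88.0% to 93.8% for Chrdl1 and 83.8% to 93.0% for Grem1. In blood cells, which should lack these genes, the ranges were 20.7% to 45.5% for Adipoq, 10.7% to 33.7% for Gdpd2, 6.19% to 20.8% for Chrdl1 and 7.89% to 19.8% for Grem1. The upper end of each blood range came from aged-injury, which had only 101 blood cells. With each cell thinned to 5000 UMIs, Chrdl1 was found in 96.0% to 98.8% of Cbln1 cells, against 86.3% to 92.7% of all other gate cells, and Grem1 in 92.0% to 97.2% of Cbln1 cells, against 82.6% to 93.5%. Of Cbln1 cells, 51.5% in aged-injury, 49.5% in aged, 48.7% in exhausted, 47.1% in naive and 55.6% in control held a tdTomato UMI. In the same libraries it was 49.7, 40.4, 32.7, 39.98 and 45.5% of all other gate cells and 13.9, 2.36, 2.34, 3.197 and 2.70% of blood cells. The Cbln1 level itself, which the rule used, was 666 CPM in aged-injury, 509 in aged, 625 in exhausted, 606 in naive and 565 in control in Cbln1 cells (CPM, UMIs of the gene per 1000000 UMIs summed over the cells) and 34.0, 40.1, 42.1, 21.8 and 37.3 CPM in limit-matched cells. Cells just inside the limit, with 2 Cbln1 UMIs, numbered 2116 and had Chrdl1 at 1309 and Wif1 at 28.3 CPM, and cells just outside, with 1 UMI, numbered 2696 and had 1199 and 47.5 CPM of these genes. At the Cxcl12 limit, 238 cells within 25 UMIs per 10000 above it had Chrdl1 at 666 CPM and 179 otherwise equal cells within 25 below it had 515 CPM. At the chemokine limit, 487 cells of 8 to 10 UMIs per 10000 had Chrdl1 at 1343 CPM and 363 cells of 10 to 12 had 1290 CPM. At the Kit limit, 442 cells with 1 UMI had Chrdl1 at 1289 CPM and 136 cells with 2 UMIs had 1046 CPM.

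Cbln1 cells made up between 29.1% and 53.3% of the gate, least in the uninjured old marrow. Their share of all gate cells was 53.3% in aged-injury, 29.1% in aged, 47.1% in exhausted, 39.2% in naive and 50.3% in control. The exact binomial 95% intervals were 52.4% to 54.3%, 27.9% to 30.3%, 44.9% to 49.4%, 37.0% to 41.4% and 49.0% to 51.6% in that order, and they cover counting error only. As a share of gate cells within the Kit and chemokine limits they were 70.4% in aged-injury, 37.9% in aged, 51.8% in exhausted, 42.0% in naive and 56.0% in control. With every cell thinned to 5000 UMIs, the shares of all gate cells were 42.9% in aged-injury, 23.6% in aged, 41.8% in exhausted, 33.2% in naive and 39.2% in control, after 905, 1536, 609, 535 and 993 shallower gate cells had been left out. The aged library was lowest and the aged-injury library highest in all of these, while exhausted was below control before thinning and above it after thinning. With a limit of 2 Cbln1 UMIs per 10000 in place of 2 UMIs, exhausted was also above control, at 50.4% in exhausted and 49.5% in control. The order was another one among all filtered cells. There the share was 30.7% in aged-injury, 20.5% in aged, 14.3% in exhausted, 14.6% in naive and 30.8% in control. The 95% intervals of the lowest libraries overlapped, at 13.4% to 15.2% in exhausted and 13.7% to 15.6% in naive. Those of the highest did too, at 29.8% to 31.7% in control and 30.0% to 31.3% in aged-injury. The gate itself held 57.5, 70.4, 30.4, 37.3 and 61.2% of filtered cells in that library order. With 1 library per group these differences have no replicate check, and age, surgery and library preparation cannot be told apart from differences between animals.

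**Figure D1:**
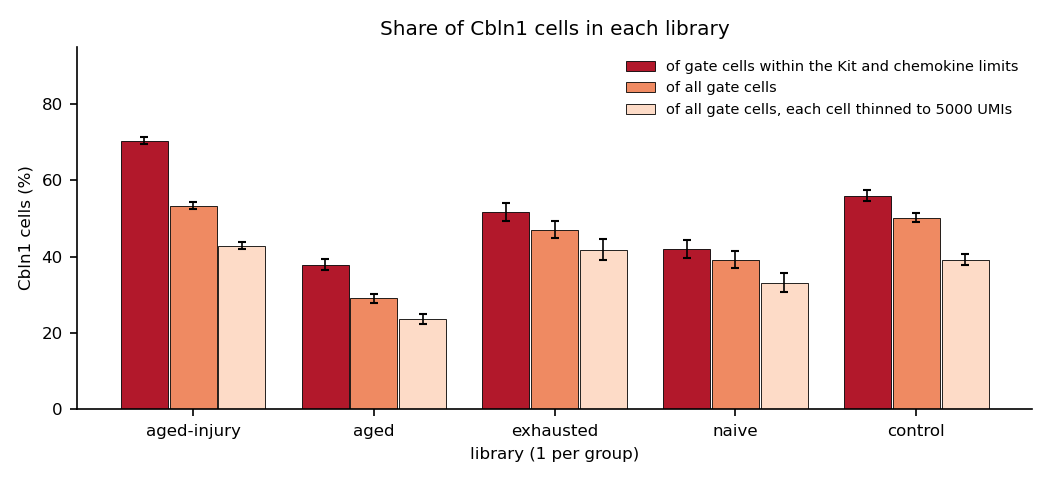
Percent of Cbln1 cells (vertical axis) in each library (horizontal axis), with 3 denominators by bar colour; error bars are exact binomial 95% intervals, which cover counting error only. The aged library is lowest with each of these 3 denominators, at 37.9% of gate cells within the limits, 29.1% of all gate cells and 23.6% after thinning.

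The Cbln1 share also varied with the Cxcl12 level, both being rule genes. Among Ptprc-negative cells with 150 to 250 Cxcl12 UMIs per 10000, at least 2 Cbln1 UMIs were found in 46.0% in aged-injury, 18.9% in aged, 32.4% in exhausted, 35.8% in naive and 28.3% in control. The share was 74.9, 37.1, 57.9, 47.2 and 56.0% at 250 to 400 UMIs and 79.8, 46.8, 55.2, 41.8 and 64.5% at 400 or more in the same library order. Below the gate, at 50 to 150 UMIs, it was 16.9, 6.16, 14.7, 13.7 and 10.3%. The Cbln1 share therefore climbed with Cxcl12 up to 400 UMIs in every library, and above that in aged-injury, aged and control but not in exhausted or naive.

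To compare the Cbln1 cells with their neighbours in the gate, UMIs were summed per library and arm, and the 5 libraries served as replicates, each giving both arms. Cbln1 cells showed somewhat higher levels of many reticular genes and much lower levels of a small set of preosteoblast genes. Against limit-matched cells, 609 of 14193 genes tested were higher (4.29%) and 665 lower (4.69%) at an edgeR adjusted p under 0.05. Without composition factors the split was 396 higher and 952 lower, and without the aged-injury library 399 were higher. Against all other gate cells, 307 of 14652 genes were higher (2.10%) and 471 lower (3.21%), with 151 higher and 260 lower without control and 174 higher without exhausted. Both comparisons called 285 genes higher (2.01%) and 398 lower (2.81%). They share their Cbln1 cells and most of their other cells, so they are not independent. All other gate cells include cells that have 2 or more Cbln1 UMIs but exceed the Kit or chemokine limit, 36.3, 14.0, 9.82, 4.97 and 12.8% of them in the library order above, and for that reason the limit-matched values come first. A value followed by its standard error (SE) alone is a log2 fold change of Cbln1 cells over limit-matched cells, unless the sentence names other cells.

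Of the other genes taken as markers of the Cbln1 cells, Chrdl1 differed most. It stood at 1305 CPM in aged-injury, 1472 in aged, 1854 in exhausted, 1453 in naive and 1527 in control in Cbln1 cells, against 894, 1198, 1293, 1005 and 1217 CPM in limit-matched cells of the same libraries. Each library had the Cbln1 cells higher, 1.40-fold in the fit (log2 fold change 0.48, SE 0.05, edgeR adjusted p = 1.68e-05), and 0.40 (SE 0.04) on the log2 scale against all other gate cells, also called. Adipoq stood at 4654 CPM in aged-injury, 4332 in aged, 5146 in exhausted, 5106 in naive and 3773 in control, against 3478, 4015, 4662, 4387 and 3824 CPM in limit-matched cells. It was called higher (log2 fold change 0.21, SE 0.05, edgeR adjusted p = 0.0291) although control had the Cbln1 cells slightly lower, and the call was lost in 3 leave-one-out fits, at 0.15 without aged-injury, 0.23 without exhausted and 0.21 without naive. Gdpd2 was 1637 CPM in aged-injury, 1675 in aged, 1469 in exhausted, 1574 in naive and 1379 in control, against 1218, 1667, 1282, 1319.7 and 1255 CPM in limit-matched cells, a called difference (log2 fold change 0.24, SE 0.05, edgeR adjusted p = 0.0132) that was not called without naive, at 0.23 on the log2 scale. Grem1 was 1464 CPM in aged-injury, 1943 in aged, 1975 in exhausted, 2151 in naive and 1535 in control, against 992, 1782, 1497, 1574 and 1737 CPM in limit-matched cells. Grem1 was higher in Cbln1 cells in 4 libraries and lower in control, and the difference was not called (log2 fold change 0.31, SE 0.12, edgeR adjusted p = 0.208).

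**Figure D2:**
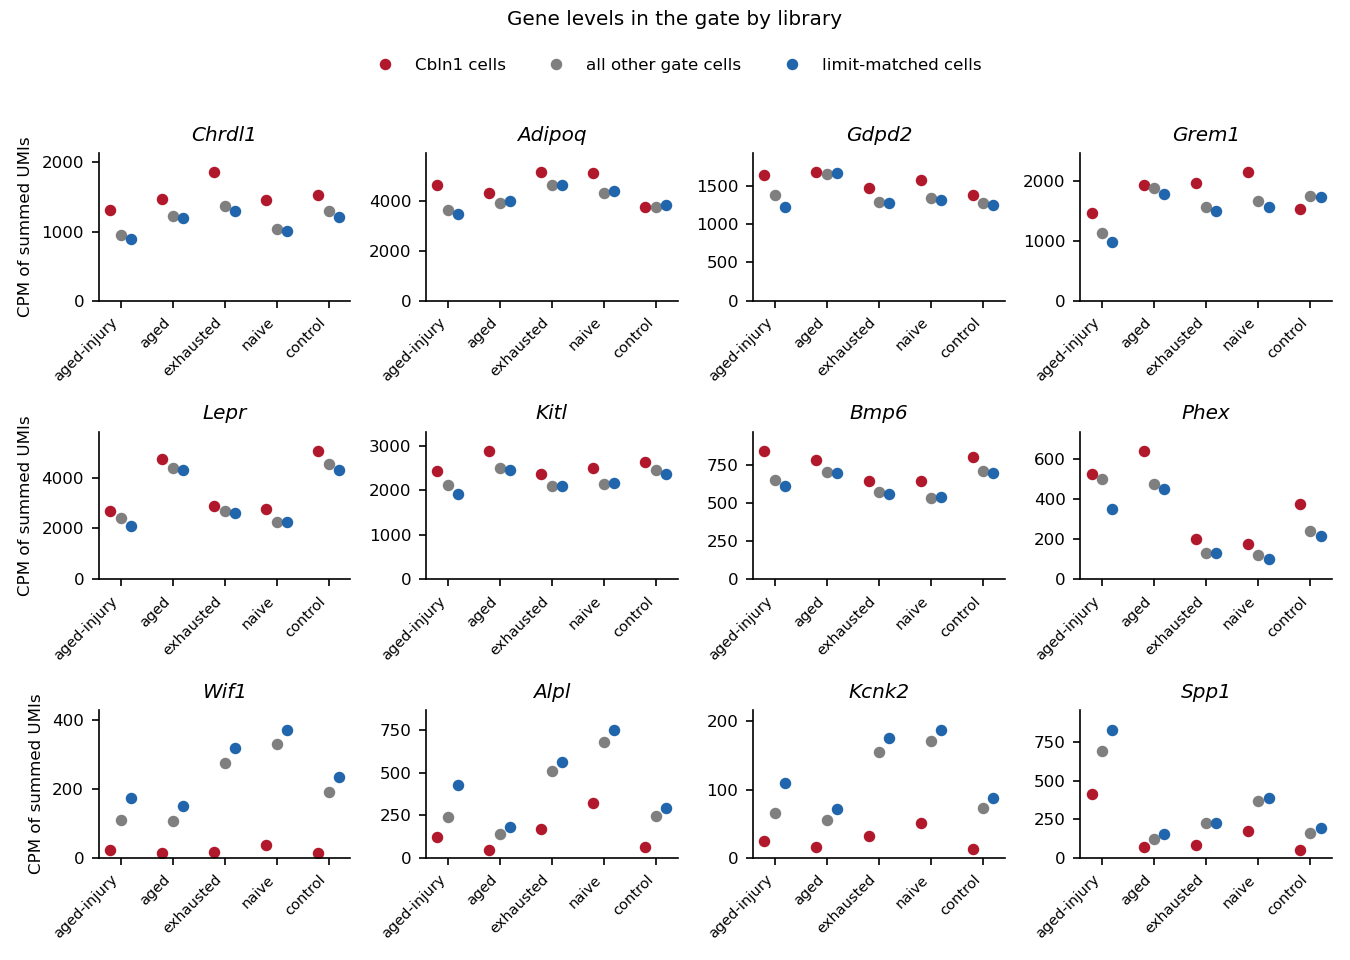
Level of 12 genes (vertical axes, CPM of UMIs summed per library and arm, linear from 0) in Cbln1 cells (red), all other gate cells (grey) and limit-matched cells (blue) of the 5 libraries, 1 point per library and arm. Chrdl1, Lepr, Kitl, Bmp6 and Phex lie higher in Cbln1 cells than in either other arm in every library, and Wif1, Alpl, Kcnk2 and Spp1 lie lower.

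Most reticular markers were a little higher in Cbln1 cells. Of 14 tested members of that list, leaving out Cxcl12, 11 were higher and 0 lower against limit-matched cells, with a median log2 fold change of 0.24 beside -0.00060 over all genes tested, and 9 were higher and 0 lower against all other gate cells. Stem cell factor Kitl was 2433 CPM in aged-injury, 2876 in aged, 2358 in exhausted, 2487.5 in naive and 2631 in control in Cbln1 cells, against 1917, 2458, 2103, 2152 and 2365 CPM in limit-matched cells (log2 fold change 0.26, SE 0.04, edgeR adjusted p = 0.00081). The leptin receptor gene Lepr was 2669 CPM in aged-injury, 4732 in aged, 2879.7 in exhausted, 2767 in naive and 5042 in control, against 2101, 4291, 2623, 2240.1 and 4312 CPM in limit-matched cells (log2 fold change 0.27, SE 0.04, edgeR adjusted p = 0.00103). Both genes were higher in the Cbln1 cells of all 5 libraries. The Lepr level of uninjured libraries, 4732 CPM in aged and 5042 in control, was above that of the 3 ablated ones, and the difference between arms was small beside it. Igfbp5, a secreted binder of insulin-like growth factors, was 21322 CPM in aged-injury, 37320.1 in aged, 22421 in exhausted, 18574 in naive and 35983 in control in Cbln1 cells, against 14319, 33146, 19623, 14930 and 28791 CPM in limit-matched cells (log2 fold change 0.35, SE 0.06, edgeR adjusted p = 0.00168). Lipoprotein lipase, Lpl, was 6831 CPM in aged-injury, 5558 in aged, 7653 in exhausted, 7094 in naive and 6967 in control, against 5985, 4151.5, 5543, 5158 and 6016 CPM in limit-matched cells (log2 fold change 0.39, SE 0.05, edgeR adjusted p = 0.000104). Esm1, a secreted proteoglycan known from endothelial cells, was also called higher, at 0.32 (SE 0.05) on the log2 scale.

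Transcription factors of the reticular state differed little. Foxc1, which keeps the niche function of these cells, was 0.14 (SE 0.04) higher on the log2 scale, and Ebf3, which holds marrow cavities open, was 0.14 (SE 0.04) higher, both called against limit-matched cells. Their calls were lost in 4 leave-one-out fits each, Foxc1 at 0.12 without aged-injury, 0.15 without aged, 0.15 without naive and 0.14 without control and Ebf3 at 0.11 without aged-injury, 0.14 without aged, 0.16 without exhausted and 0.16 without naive. Ebf1 did not pass the test, at -0.01 (SE 0.04), nor did the fat-lineage regulators Pparg, at -0.07 (SE 0.04), and Cebpa, at 0.08 (SE 0.04), nor Runx2, the master regulator of bone formation, at -0.13 (SE 0.04). Of the 15 tested genes in the list of reticular transcription factors and receptors, 7 were higher and 0 lower, with a median log2 fold change of 0.12. Besides Foxc1, Ebf3 and Lepr, these included the interleukin 1 receptor Il1r1 at 0.29 (SE 0.04), the oncostatin M receptor Osmr and the platelet-derived growth factor receptor Pdgfra. Against all other gate cells 3 of the 15 were higher, Foxc1, Il1r1 and Lepr, and 0 lower. Ebf3 was not called there, at 0.12 (edgeR adjusted p = 0.0659).

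Among secreted niche factors, 5 of 16 tested were higher and 1 lower against limit-matched cells, with a median log2 fold change of 0.06. Besides Kitl these were Angpt1, a vessel-stabilising ligand, at 0.24 (SE 0.04), the chemokine Ccl19, the adhesion molecule Vcam1 at 0.20 (SE 0.04) and the lymphoid growth factor Il7 at 0.26 (SE 0.07). The Il7 call was lost in 2 leave-one-out fits, at 0.28 without aged and 0.24 without exhausted. Jag1, a Notch ligand, was lower at -0.36 (SE 0.06), and at -0.27 (edgeR adjusted p = 0.0588) without the cells of 2 or more Wif1 UMIs described below. Csf1, the macrophage growth factor, was 695, 826, 990.1, 1040.3 and 868 CPM in Cbln1 cells in the library order above, against 782, 798, 960.0, 959 and 904 CPM in limit-matched cells, and was not called (log2 fold change 0.04, SE 0.04, edgeR adjusted p = 0.708). Igf1 was not called either, at -0.01 (SE 0.04). Against all other gate cells the list had 3 higher members, Kitl, Angpt1 and Il7, and 2 lower ones, Jag1 and Tgfb2. The median log2 fold change was 0.03 there, and Vcam1 was not called, at 0.08 (edgeR adjusted p = 0.460).

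Genes of the BMP pathway were called in both directions. Bmp6 was 841 CPM in aged-injury, 783 in aged, 645 in exhausted, 648 in naive and 800.4 in control in Cbln1 cells, against 615, 696, 559, 539 and 697 CPM in limit-matched cells, higher in each library (log2 fold change 0.30, SE 0.05, edgeR adjusted p = 0.000767). It was the 1 BMP ligand of 10 tested that rose, a count that cannot be set apart from the 4.29% of all genes called higher. Another 5 fell: Bmp1, which is a procollagen protease, at -0.27 (SE 0.04), and Bmp3, Bmp8a, Gdf10 and Inhbb. Bmp4 was not called, at -0.01 (SE 0.06). Of 11 tested antagonists, 4 rose, among them Chrdl1, the activin binder follistatin (Fst) at 0.29 (SE 0.06) and Twsg1, and 2 fell, Fstl3 and Nbl1; the Fst call was lost without naive, at 0.27. Of 11 receptors and Smads 1 rose, Acvr2a, at 0.38 (SE 0.04), a count too small to set apart from the 4.29% of all genes called higher. Of 10 tested target genes 1 rose, Msx1, again too few to set apart from that share. A further 3 fell: Id2 at -0.32 (SE 0.05), Id4 at -0.26 (SE 0.04) and the inhibitory Smad6 at -0.43 (SE 0.07). Without the cells of 2 or more Wif1 UMIs the calls of Id2, at -0.14 (edgeR adjusted p = 0.338), and Smad6, at -0.11 (edgeR adjusted p = 0.34), were lost. Id1, a target read in many studies, was 21.7, 18.4, 44.8, 41.1 and 17.1 CPM in Cbln1 cells, against 34.5, 20.1, 44.3, 42.2 and 23.5 CPM in limit-matched cells, and was not called (log2 fold change -0.25, SE 0.10, edgeR adjusted p = 0.161).

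The lower genes were led by Wif1, which encodes a secreted inhibitor of Wnt ligands. It was 22.3 CPM in aged-injury, 13.6 in aged, 15.9 in exhausted, 37.4 in naive and 15.8 in control in Cbln1 cells, against 174, 151, 319, 373 and 234 CPM in limit-matched cells of the same libraries. The Cbln1 cells of every library lay below the limit-matched cells of every library, and the fitted level was 11.2-fold lower (log2 fold change -3.48, SE 0.23, edgeR adjusted p = 0.00233). Kcnk2, a potassium channel gene, was 25.3 CPM in aged-injury, 15.8 in aged, 32.2 in exhausted, 50.7 in naive and 13.1 in control, against 110.0, 72.2, 176, 188 and 87.4 CPM in limit-matched cells (log2 fold change -2.22, SE 0.12, edgeR adjusted p = 0.000194). Alpl, the tissue-nonspecific alkaline phosphatase of mineralising cells, was 124 CPM in aged-injury, 46.2 in aged, 169.9 in exhausted, 321 in naive and 63.6 in control, against 427, 184, 564, 751 and 295 CPM in limit-matched cells (log2 fold change -1.74, SE 0.16, edgeR adjusted p = 0.00447). The naive library was highest for Wif1, Kcnk2 and Alpl in both arms, and each was lower in the Cbln1 cells of all 5 libraries. Limch1, an actin-linked protein, was 188, 150.2, 161, 331 and 118 CPM in Cbln1 cells in the library order above, against 440.0, 359, 634, 809 and 431 CPM in limit-matched cells (log2 fold change -1.48, SE 0.15, edgeR adjusted p = 0.00702). These 4 calls held in each leave-one-out fit against limit-matched cells. Against all other gate cells the log2 fold changes were -3.12 (SE 0.29) for Wif1, -1.88 (SE 0.19) for Kcnk2, -1.40 (SE 0.18) for Alpl and -1.21 (SE 0.19) for Limch1, all called. Each of those calls was lost in 2 or more leave-one-out fits. Wif1 was -3.15 without aged, -3.11 without naive and -3.00 without control. Kcnk2 was -1.90 without aged and -1.92 without naive. Alpl was -1.36 without aged, -1.36 without exhausted and -1.49 without naive. Limch1 was -1.28 without aged, -1.09 without exhausted, -1.23 without naive and -1.12 without control.

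The rest of the bone list fell in part. Of 22 tested members, 9 were lower and 2 higher against limit-matched cells, with a median log2 fold change of -0.55. Sp7, the transcription factor of committed osteoblast precursors, was 21.6, 10.8, 24.6, 41.3 and 12.9 CPM in Cbln1 cells, against 47.4, 27.7, 54.0, 76.4 and 34.8 CPM in limit-matched cells (log2 fold change -1.14, SE 0.07, edgeR adjusted p = 6.82e-07). Mmp13, a collagenase of remodelling bone, was 2088 CPM in aged-injury, 472 in aged, 1586 in exhausted, 2353 in naive and 705 in control, against 3569.9, 948, 3286, 4069.8 and 1318 CPM in limit-matched cells (log2 fold change -0.86, SE 0.05, edgeR adjusted p = 9.60e-08). Spp1, the bone matrix protein osteopontin, was 416 CPM in aged-injury, 69.4 in aged, 84.9 in exhausted, 173 in naive and 51.3 in control, against 830.0, 156, 225, 386 and 192 CPM in limit-matched cells. It was called lower (log2 fold change -1.28, SE 0.15, edgeR adjusted p = 0.00992). The call was lost at -1.25 without exhausted. The parathyroid hormone receptor gene Pth1r and the matrix gene Postn were also called lower. The collagen gene Col1a1 was 3447 CPM in aged-injury, 797 in aged, 3457 in exhausted, 2681 in naive and 1202 in control, against 5221, 878, 3007, 2996 and 1139.6 CPM in limit-matched cells, and was not called (log2 fold change -0.09, SE 0.11, edgeR adjusted p = 0.761). Col1a1 differed between libraries far more than between arms. Phex, an endopeptidase of late osteoblasts and osteocytes whose loss raises the phosphate-wasting hormone FGF23, went the other way. It was 526 CPM in aged-injury, 639 in aged, 203 in exhausted, 175 in naive and 373 in control in Cbln1 cells, against 349, 447, 131, 103 and 216 CPM in limit-matched cells, higher in each library (log2 fold change 0.69, SE 0.05, edgeR adjusted p = 4.32e-07). Against all other gate cells Phex was 0.46 on the log2 scale (edgeR adjusted p = 0.0330). That call was lost without control, naive, exhausted or aged, and with Cxcl12 at 250 or more UMIs per 10000. Dmp1, a mineralisation protein of the same late cells, was the other higher member of the list, at 10.9, 7.07, 2.64, 2.69 and 6.89 CPM in Cbln1 cells, against 3.35, 5.72, 0.876, 0.896 and 4.25 CPM in limit-matched cells (log2 fold change 1.07, SE 0.22, edgeR adjusted p = 0.0152). Dmp1 was not called against all other gate cells, where Phex was the only higher member of the list. Sp7 and Dmp1 were chosen for their values here after these had been seen.

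A minority of cells held most of the Wif1 transcripts. Among Cbln1 cells, the share with 2 or more Wif1 UMIs was 2.78% in aged-injury, 2.26% in aged, 3.12% in exhausted, 6.27% in naive and 2.14% in control. It was 14.3, 9.39, 19.5, 28.1 and 12.4% of limit-matched cells in the same libraries. In limit-matched cells they carried 93.6% to 96.8% of all Wif1 UMIs. With both arms limited to cells of under 2 Wif1 UMIs, a version added after these shares had been seen, 263 genes were higher and 292 lower against limit-matched cells, and 157 and 211 against all other gate cells. Against limit-matched cells Wif1 was then -0.79, a description only, since Wif1 was the gene used to leave cells out. Kcnk2 was -0.72 (edgeR adjusted p = 0.000204). Alpl was -0.49 (edgeR adjusted p = 0.0474) and Limch1 was -0.45 (edgeR adjusted p = 0.0361). Mmp13 was -0.20 (edgeR adjusted p = 0.0291) and Spp1 was -1.10 (edgeR adjusted p = 0.000544) on the log2 scale. Chrdl1 was 0.30 (edgeR adjusted p = 0.00289), Kitl was 0.20 (edgeR adjusted p = 0.02) and Phex was 0.54 (edgeR adjusted p = 1.48e-05). The calls of Adipoq, at 0.14 (edgeR adjusted p = 0.286), of Gdpd2, at 0.15 (edgeR adjusted p = 0.185), of Lepr, at 0.15 (edgeR adjusted p = 0.0786), of Vcam1, at 0.12 (edgeR adjusted p = 0.137), and of Angpt1, at 0.13 (edgeR adjusted p = 0.0927), were lost there. Without those cells, the higher reticular genes kept their direction and were nearer to 0. Leaving Wif1 aside, the drop shrank by more than 1.5 times for Kcnk2, Alpl, Limch1 and Mmp13 but not for Spp1.

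Over all genes, the 12 furthest higher and the 12 furthest lower were taken from those called in both comparisons with the same sign in every library and at least 50 CPM, a set of 175 higher genes (1.23%) and 96 lower ones (0.677%). The highest was Adamdec1, a secreted metalloprotease related to the ADAM family, at 102 CPM in aged-injury, 107 in aged, 47.1 in exhausted, 29.7 in naive and 68.7 in control in Cbln1 cells, against 52.0, 80.1, 22.96, 10.4 and 39.3 CPM in limit-matched cells (log2 fold change 0.89, SE 0.14, edgeR adjusted p = 0.0148). Its call was lost in 3 leave-one-out fits, at 0.83 without aged-injury, 0.86 without exhausted and 0.90 without control. Mc5r, a melanocortin receptor, was 67.5 CPM in aged-injury, 91.8 in aged, 71.9 in exhausted, 114 in naive and 95.9 in control, against 45.7, 53.02, 50.5, 61.6 and 67.5 CPM in limit-matched cells (log2 fold change 0.69, SE 0.05, edgeR adjusted p = 5.04e-06). Adh1, an alcohol and retinol dehydrogenase, was 78.1, 113, 128, 95.7 and 97.3 CPM in Cbln1 cells in the library order above, against 46.4, 85.3, 85.7, 49.6 and 68.7 CPM in limit-matched cells (log2 fold change 0.66, SE 0.07, edgeR adjusted p = 0.000425). The other higher genes were Tgfbi, a matrix protein induced by TGF-beta, at 0.62 (SE 0.05), the dehydrogenase Dhdh at 0.55 (SE 0.07), and Ptchd1, a patched-domain membrane protein, at 0.51 (SE 0.06). The list went on with the Wnt antagonist Sfrp4 at 0.48 (SE 0.04) and the matrix proteoglycan podocan (Podn) at 0.47 (SE 0.05). It held Kcnip3, a calcium-binding modulator of potassium channels, at 0.45 (SE 0.05) and Abat, which breaks down GABA, at 0.39 (SE 0.05), beside Phex and Chrdl1. Each of these 12 was higher in 5 of 5 libraries, which the choice required, and apart from Adamdec1 their calls against limit-matched cells held in every leave-one-out fit.

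On the lower side, beside Wif1, Kcnk2, Alpl, Limch1, Spp1 and Mmp13, the 12 genes furthest lower held Fn1, Itga9, Timp3, Rbp4, Sdc3 and Raph1. Fibronectin, Fn1, was 102 CPM in aged-injury, 1.89 in aged, 56.8 in exhausted, 107 in naive and 5.38 in control in Cbln1 cells, against 325, 5.49, 114, 209.9 and 19.6 CPM in limit-matched cells. Fn1 was under 20 CPM in both arms of the uninjured libraries and lower in the Cbln1 cells of all 5 (log2 fold change -1.32, SE 0.16, edgeR adjusted p = 0.0096); the call was lost when cells of 2 or more Wif1 UMIs were left out, at -1.14 (edgeR adjusted p = 0.101). The integrin gene Itga9 was 28.3, 16.4, 28.7, 59.4 and 23.6 CPM in Cbln1 cells in the library order above, against 75.3, 44.0, 91.5, 125 and 48.9 CPM in limit-matched cells (log2 fold change -1.27, SE 0.08, edgeR adjusted p = 3.41e-05). Timp3, an inhibitor of matrix proteases, was 60.6 CPM in aged-injury, 79.8 in aged, 11.2 in exhausted, 32.6 in naive and 53.8 in control, against 128, 164, 56.1, 67.2 and 113 CPM in limit-matched cells (log2 fold change -1.14, SE 0.17, edgeR adjusted p = 0.0215), and its call was lost at -1.18 without aged-injury, -1.18 without aged, -1.16 without naive and -1.17 without control. Rbp4, the retinol carrier, was -1.05 (SE 0.18) and lost its call at -0.98 without aged, -1.08 without exhausted and -1.10 without naive. The syndecan gene Sdc3 was lower at -0.83 (SE 0.05), and Raph1, which binds actin regulators at the leading edge of cells, at -0.81 (SE 0.09). Without the cells of 2 or more Wif1 UMIs these differences shrank by more than 1.5 times, to -0.65 for Itga9, -0.62 for Rbp4, -0.30 for Sdc3 and -0.39 for Raph1, all still called against limit-matched cells, while the call of Sdc3 against all other gate cells ended, at -0.23.

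**Figure D3:**
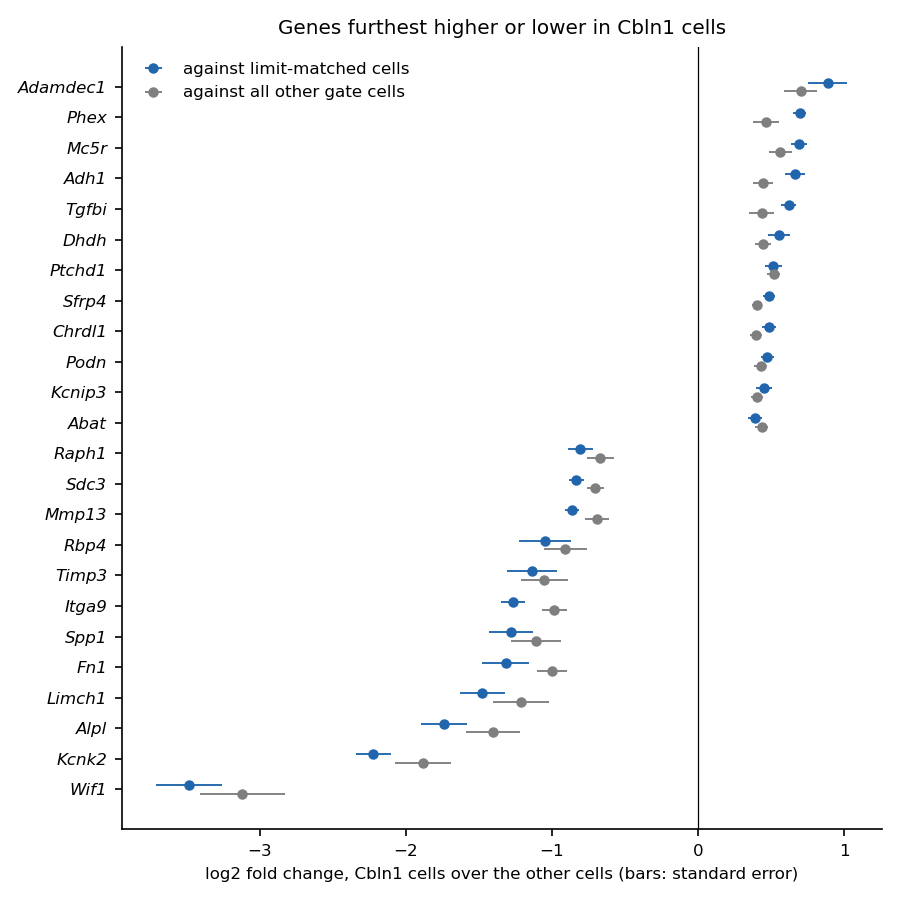
Log2 fold change (horizontal axis, Cbln1 cells over the other cells, points; bars are the standard error) of the 12 genes furthest higher and the 12 furthest lower, against limit-matched cells (blue) and all other gate cells (grey), each fitted over 5 libraries. The higher genes lie between 0.39 and 0.89 and the lower ones between -0.67 and -3.48, with Wif1 farthest from 0.

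The levels of some genes also differed by the Cbln1 count itself. Gate cells within the limits that had at least 5000 UMIs were grouped by their Cbln1 UMIs after thinning to 5000, and the levels of other genes were taken from all their UMIs, as a description. Chrdl1 was 932 CPM in aged-injury, 1193 in aged, 1285 in exhausted, 964 in naive and 1257 in control in the cells with 0 Cbln1 UMIs. It was 1412, 1632, 1753, 1652 and 1748 CPM in the cells with 6 or more, in that library order. The intermediate groups lay between these in aged-injury, aged, naive and control. In exhausted the groups of 2 UMIs and of 3 to 5 UMIs were both above that of 6 or more. Mc5r was 46.7, 57.6, 50.4, 64.0 and 72.0 CPM in the cells with 0 Cbln1 UMIs and 82.3, 113, 75.7, 147 and 116 CPM in those with 6 or more. Wif1 was lower at 1 Cbln1 UMI already. It was 168 CPM in aged-injury, 171 in aged, 333 in exhausted, 369 in naive and 256 in control at 0 UMIs, 45.2, 25.2, 32.5, 30.3 and 25.1 CPM at 1 UMI and 8.62, 5.75, 10.1, 13.2 and 12.8 CPM at 6 or more. Alpl was 429, 203, 582, 777 and 324 CPM at 0 UMIs, 167, 54.2, 241, 299 and 70.8 CPM at 1 UMI and 81.9, 25.9, 155, 264 and 64.2 CPM at 6 or more. Chrdl1 and Mc5r were thus higher at 6 or more UMIs than at 0 in every library, and most of the drop in Wif1 and Alpl lay between 0 and 1 UMI. Other marker genes did not go one way in every library. Grem1 in control was 1804 CPM at 0 UMIs and 1486 CPM at 6 or more. Gdpd2 in aged was 1663 CPM at 0 UMIs and 1451 CPM at 6 or more, and Lepr in exhausted was 2519.7 CPM at 0 UMIs and 2340.1 CPM at 6 or more. In the other 4 libraries each of these 3 genes was higher at 6 or more UMIs than at 0.

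**Figure D4:**
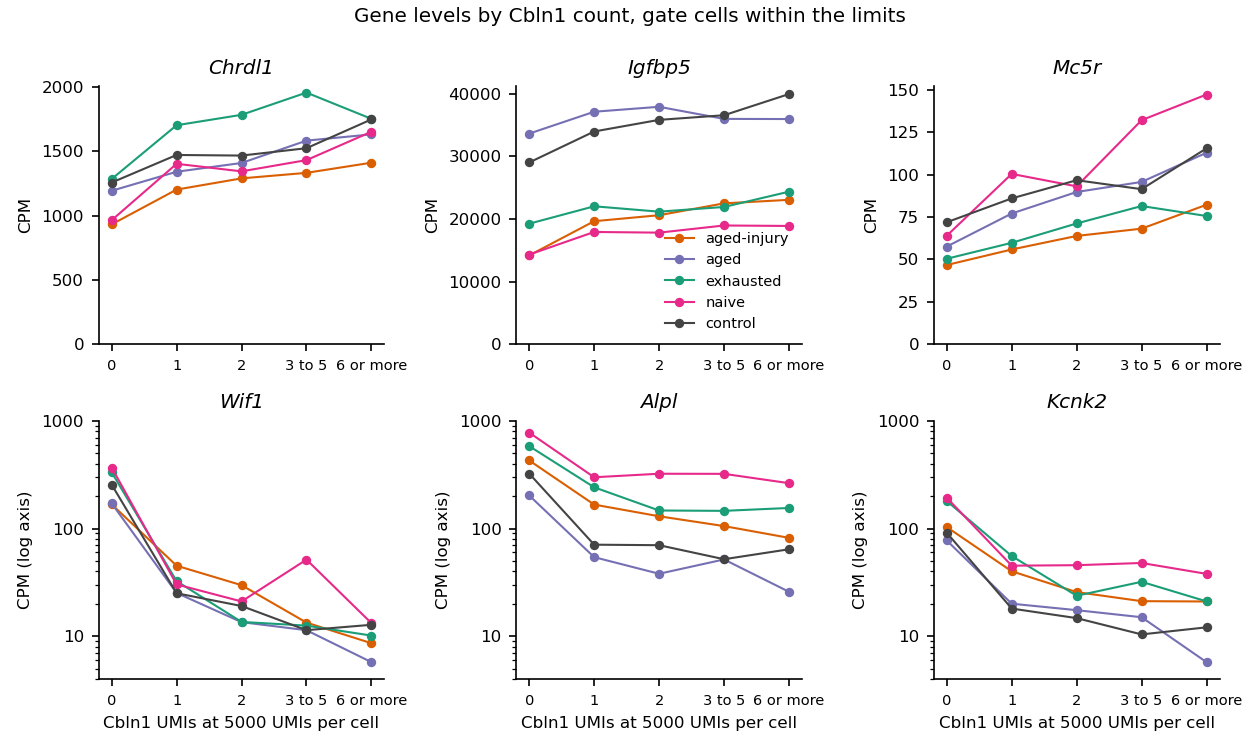
Level of 6 genes (vertical axes, CPM; log axes in the lower row) by the number of Cbln1 UMIs at a depth of 5000 UMIs per cell (horizontal axis), in gate cells within the Kit and chemokine limits, 1 line per library and 92 to 2192 cells per point. Wif1, Alpl and Kcnk2 fall most between 0 and 1 UMI, and Chrdl1 and Mc5r are higher at 6 or more UMIs than at 0 in every library.

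In the list of cerebellins and synaptic adhesion partners, 12 genes other than Cbln1 were tested against limit-matched cells, of which 2 rose and 1 fell, with a median log2 fold change of 0.11. The relative Cbln2 was 21.1 CPM in aged-injury, 6.13 in aged, 62.3 in exhausted, 32.2 in naive and 29.7 in control in Cbln1 cells, against 10.7, 4.11, 24.7, 10.4 and 16.1 CPM in limit-matched cells, higher in each library (log2 fold change 1.13, SE 0.11, edgeR adjusted p = 0.000194). Nlgn1, a postsynaptic adhesion gene, was 3.60, 2.02, 2.75, 4.91 and 4.57 CPM in Cbln1 cells, against 4.70, 6.30, 6.31, 8.29 and 8.33 CPM in limit-matched cells (log2 fold change -0.83, SE 0.16, edgeR adjusted p = 0.00489). Nlgn1 was singled out after its values had been seen. Beside 4.29% higher and 4.69% lower over all genes tested, the counts of this list are too small to be read as results about it. In the wider family of secreted proteins with a C1q domain, 3 of 17 tested rose (Adipoq, C1qtnf2 and Cbln2) and 3 fell (C1qtnf1, Col8a1 and Emilin2).

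Several lists outside the skeletal lineage also held called genes. Of 13 tested acute-phase and complement genes 9 were higher and 0 lower against limit-matched cells, with a median log2 fold change of 0.26. Among them C4b, a component of the classical complement cascade, was 1685 CPM in aged-injury, 1642 in aged, 1252 in exhausted, 1226 in naive and 1499.6 in control in Cbln1 cells, against 1232, 1429.9, 916, 874 and 1231 CPM in limit-matched cells (log2 fold change 0.41, SE 0.05, edgeR adjusted p = 7.60e-05). Serping1, the C1 inhibitor, was 4078 CPM in aged-injury, 6032 in aged, 4911 in exhausted, 4349.5 in naive and 5298 in control, against 2991, 5025, 3961, 3309.9 and 4300.4 CPM in limit-matched cells (log2 fold change 0.38, SE 0.04, edgeR adjusted p = 4.18e-05). Both were higher in the Cbln1 cells of all 5 libraries, as was the protease gene C1ra, at 0.31 (SE 0.04). Lbp, which binds bacterial lipopolysaccharide, was 0.33 (SE 0.05) higher on the log2 scale. These 4 calls held in each leave-one-out fit and without the cells of 2 or more Wif1 UMIs.

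The rule itself removes chemokine-high cells, and counts of inflammatory genes differed with the cells that stood opposite. Of 22 tested inflammatory factors 6 were higher and 2 lower against limit-matched cells, and 0 higher and 3 lower against all other gate cells. The feedback inhibitor of NF-kappa-B, Nfkbia, was 507 CPM in aged-injury, 802 in aged, 586 in exhausted, 415 in naive and 651 in control in Cbln1 cells, against 448, 795, 539, 329 and 613 CPM in limit-matched cells and 609, 1009, 671, 368 and 710.3 CPM in all other gate cells. It was called higher against the limit-matched cells, at 0.18 (SE 0.05) and at 0.17 without aged-injury and 0.14 without naive with no call, and not called against all others, at -0.13 (SE 0.07). Ptgs2, the prostaglandin synthase, was lower against both, at -0.74 (SE 0.09) against limit-matched cells and -0.04 (edgeR adjusted p = 0.969) without the cells of 2 or more Wif1 UMIs. Immediate early genes followed the same split: 7 of 22 were higher and 2 lower against limit-matched cells, and 0 higher and 4 lower against all other gate cells. Of these Nr4a2 was lower against both, at -0.61 (SE 0.05) and -0.63 (SE 0.05), as was Klf4, at -0.33 (SE 0.06) and -0.35 (SE 0.06), while Fos was called in neither, at 0.12 (SE 0.04) and 0.06 (SE 0.03). Of 22 interferon response genes 0 were higher and 5 lower against limit-matched cells, with a median log2 fold change of -0.12; Isg15, a ubiquitin-like interferon product, was -0.32 (SE 0.06). Heat shock genes and glucocorticoid response genes had 4 of 14 and 6 of 14 higher against limit-matched cells and 0 of 14 each against all others, with Errfi1 at 0.24 (SE 0.04) and 0.04 (SE 0.06).

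Matrix genes split as well. Of 35 tested 8 were higher and 7 lower against limit-matched cells, with a median log2 fold change of 0.01. Basement membrane nidogens were among the higher ones, with Nid2 at 0.45 (SE 0.04), and the inhibitors Timp1, Timp2 and Timp3 were among the lower ones. The Timp1 call was lost at -0.32 without aged-injury and -0.41 without exhausted. In the Wnt list 2 of 20 were higher, Dkk3 at 0.25 (SE 0.05) and Sfrp4, and 6 lower, including the ligand Wnt5a at -0.88 (SE 0.06) and the Wnt target genes Axin2 and Lef1. Of the Notch list 2 of 10 were higher, Hes1 at 0.23 (SE 0.05) and Heyl, and 3 lower, Hey1 at -0.69 (SE 0.08), Notch1 at -0.24 (SE 0.04) and Jag1. In the fat lineage 2 of 22 were higher, Lpl and the transcription factor Klf15 at 0.46 (SE 0.07), and 2 lower, the fatty acid carrier Fabp4 at -0.58 (SE 0.09) and the lipid droplet coat gene Plin1. Cdkn1c, an imprinted inhibitor of cell division, was higher at 0.36 (SE 0.04). Of 15 cell division genes 0 were called in either comparison. After thinning to 5000 UMIs a Mki67 UMI was found in 1.08% to 2.13% of Cbln1 cells, against 0.925% to 2.07% of all other gate cells and 27.4% to 39.0% of blood cells. The upper blood value came from 82 cells in aged-injury. Of 12 MHC class I genes 1 was lower, Nlrc5 at -0.35 (SE 0.06), and in the IGF list 1 of 12 was higher, Igfbp5. Beside 4.29% higher and 4.69% lower over all genes tested, the counts of the fat, MHC class I and IGF lists are too small to be read as results about these lists. The same holds for the higher counts of the Wnt and Notch lists. Among neural and ion channel genes 1 of 23 was higher, near the 4.29% of all genes, and 7 were lower. The vessel factors had 5 of 20 higher and 5 lower, with Pdgfa at -0.27 (SE 0.04), and the cell cycle arrest genes 2 of 19 higher and 4 lower, with Plk2 at -0.46 (SE 0.06). The 2 higher arrest genes are likewise too few to be read as a result about that list.

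Part of the calls depended on how high the Cxcl12 limit of the gate was set. With Cxcl12 at 250 or more UMIs per 10000 in both arms, edgeR no longer called the reticular genes Adipoq at 0.04, Gdpd2 at 0.11, Vcam1 at 0.12 and Foxc1 at 0.09, all as log2 fold changes against limit-matched cells. The calls of Fst at 0.23, Ptchd1 at 0.46 and Hes1 at 0.20 also ended there, as did the lower ones of Timp3 at -0.95, Timp1 at -0.23, Ptgs2 at -0.38 and Nlrc5 at -0.21. Other genes kept their call but moved by more than 1.5 times: Chrdl1 at 0.31, Lepr at 0.16, Il7 at 0.17, Igfbp5 at 0.22 and Bmp6 at 0.19, and likewise Esm1 at 0.17, Serping1 at 0.24, C1ra at 0.17, Lbp at 0.22 and Nr4a2 at -0.31. Without the cells of 2 or more Wif1 UMIs, calls also ended for Ebf3 at 0.10, Nfkbia at 0.22, Fst at 0.17, Hes1 at 0.13, Pdgfa at -0.09 and Nlrc5 at -0.23, and Lpl was 0.17. Moved there by more than 1.5 times but still called were Ptchd1 at 0.28, Podn at 0.29, Nid2 at 0.30, Klf15 at 0.27 and C1ra at 0.19 on the higher side and Hey1 at -0.30, Id4 at -0.16, Wnt5a at -0.49, Nr4a2 at -0.39 and Fabp4 at -0.88 on the lower side. Further calls ended under other choices. With 2 Cbln1 UMIs per 10000 as the limit they were Ebf3 at 0.14, Il7 at 0.20, Nfkbia at 0.15, Fabp4 at -0.67 and Timp1 at -0.37. With 3 Cbln1 UMIs as the limit they were Id2 at -0.29 and Timp1 at -0.31, and against limit-matched cells of 0 Cbln1 UMIs the call of Il7 at 0.24 ended. Without composition factors they were Adipoq at 0.17, Foxc1 at 0.10, Ebf3 at 0.11, Il7 at 0.22 and Nfkbia at 0.14. On cells of 5000 or more UMIs they were Foxc1 at 0.12, Ebf3 at 0.13 and Nfkbia at 0.12, and with a mitochondrial share under 10% Foxc1 at 0.13 and Nfkbia at 0.15. With no filter on low counts the calls of Timp3 at -1.12 and Rbp4 at -1.03 ended. Against all other gate cells, Fabp4 was called at -0.64 (edgeR adjusted p = 0.0460), and that call was lost in 11 of 16 other versions of the fit with the library block, at -0.86 to -0.56.

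Markers of other cell types were present in both arms, and part of them differed between the arms. The summed level of 8 adipocyte markers was 299, 47.9, 221, 267 and 71.6 CPM in Cbln1 cells in the library order above, against 888, 80.1, 379, 684 and 174 CPM in limit-matched cells, with 3 of 5 tested lower, Car3, Fabp4 and Plin1. For 8 pericyte and smooth muscle markers the sums were 456 to 878 CPM in Cbln1 cells and 579 to 894 CPM in limit-matched cells, with 2 of 8 lower, Acta2 and Rgs5. The 10 osteoblast lineage markers summed to 6115, 6760.1, 6534, 5874 and 6795 CPM in Cbln1 cells, against 7748, 6584, 6869, 6811 and 5618 CPM in limit-matched cells, with 3 called lower, Alpl, Sp7 and Wif1, and 2 higher, Dmp1 and Phex. Their sum was below that of limit-matched cells in aged-injury, exhausted and naive and above it in aged and control. Blood markers came with every library. The 6 erythroid genes summed to 979, 1468, 4019, 1546 and 3259 CPM in Cbln1 cells, against 250.1, 1855, 2816, 1166 and 4704 CPM in limit-matched cells. The 7 neutrophil genes summed to 8.39 to 210.3 CPM, against 54.7 to 239 CPM. The 7 macrophage genes summed to 9.36 to 65.9 CPM, against 17.3 to 78.0 CPM. None of the tested erythroid, neutrophil, macrophage, B-cell, endothelial, chondrocyte, fibroblast or megakaryocyte markers was called in either comparison by edgeR. None of the listed markers was at 0 in all Cbln1 cells. Their part in the results was not tested.

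Between groups, the Cbln1 cells of 1 library stand against those of another, so the values below have no replicate check and no test. Genes named below as furthest apart had at least 50 CPM in the higher library, and genes under that limit can lie further apart. A small set of genes, with Fn1, Car3 and Adamts12 among them, stood apart in the Cbln1 cells of all 3 ablated libraries. Among 6956 genes with at least 20 CPM in some library, 32 were at least 2-fold higher in each of the 3 ablated libraries than in both uninjured ones (0.460%) and 6 were at least 2-fold lower (0.0863%). Without the 2-fold limit, 31.3% of genes were higher in all 3 ablated libraries than in both uninjured ones and 11.4% were lower. With TMM-scaled CPM, a version added after this split had been seen, these were 21.2% and 18.0%, and 29 and 9 genes were at least 2-fold higher and lower. The 35 genes of the matrix list summed to 28382 CPM in aged-injury, 23285 in exhausted and 25551 in naive, against 22633 in aged and 22711 in control. Fibronectin, Fn1, was 102 CPM in aged-injury, 56.8 in exhausted and 107 in naive, against 1.89 in aged and 5.38 in control. Car3, a muscle and fat carbonic anhydrase, was 100.1 CPM in aged-injury, 62.6 in exhausted and 90.3 in naive, against 2.49 in aged and 6.59 in control. Car3 and Fabp4, another of the 32, are on the list of 8 adipocyte markers, whose sum was 299 CPM in aged-injury, 221 in exhausted and 267 in naive, against 47.9 in aged and 71.6 in control. Fabp4 was 191 CPM in aged-injury, 151 in exhausted and 167 in naive, against 42.8 in aged and 63.6 in control. Car3 and Fabp4 thus made up nearly all of that sum in every library, and it says little about the other markers on the list. The part of fat cell transcripts in these values was not tested. Adamts12, a matrix protease, was 73.6 CPM in aged-injury, 63.4 in exhausted and 96.6 in naive, against 10.3 in aged and 17.1 in control. For these 3 genes the ablated libraries lay within 2-fold of each other, and both uninjured ones lay below.

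Npnt, a matrix ligand of integrins, was 69.2 CPM in aged-injury, 82.7 in exhausted and 143 in naive, against 21.1 in aged and 16.3 in control. Sfrp2, a Wnt modulator, was 129 CPM in aged-injury, 128 in exhausted and 150.3 in naive, against 43.8 in aged and 20.2 in control. Fibrillin 2, Fbn2, at 90.3 CPM in aged-injury, 76.4 in exhausted and 113 in naive, against 26.1 in aged and 27.4 in control, and Rbp4 and Ecrg4 completed the 8 named. Under the 50 CPM limit, Col8a2 was further apart than these 8. It was 17.9 CPM in aged-injury, 24.5 in exhausted and 45.4 in naive, against 0.269 in aged and 1.48 in control. On the lower side Unc5c, a netrin receptor, was 17.7 CPM in aged-injury, 16.6 in exhausted and 21.8 in naive, against 57.4 in aged and 54.3 in control. Unc5c was the only lower gene that reached 50 CPM. Under that limit Atp1b1 was further apart, at 3.30 CPM in aged-injury, 5.38 in exhausted and 4.45 in naive, against 34.3 in aged and 27.0 in control. The rest of the gate went the same way. In all other gate cells all 32 higher genes and all 6 lower genes lay on the same side, 18 and 4 of them by at least 2-fold. In those cells Fn1 was 194 CPM in aged-injury, 109 in exhausted and 194 in naive, against 4.25 in aged and 16.9 in control. The aged-injury mice were examined 1 week after surgery and the exhausted and naive mice 2 weeks after their last one, so time since surgery and age differ among the ablated libraries.

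**Figure D5:**
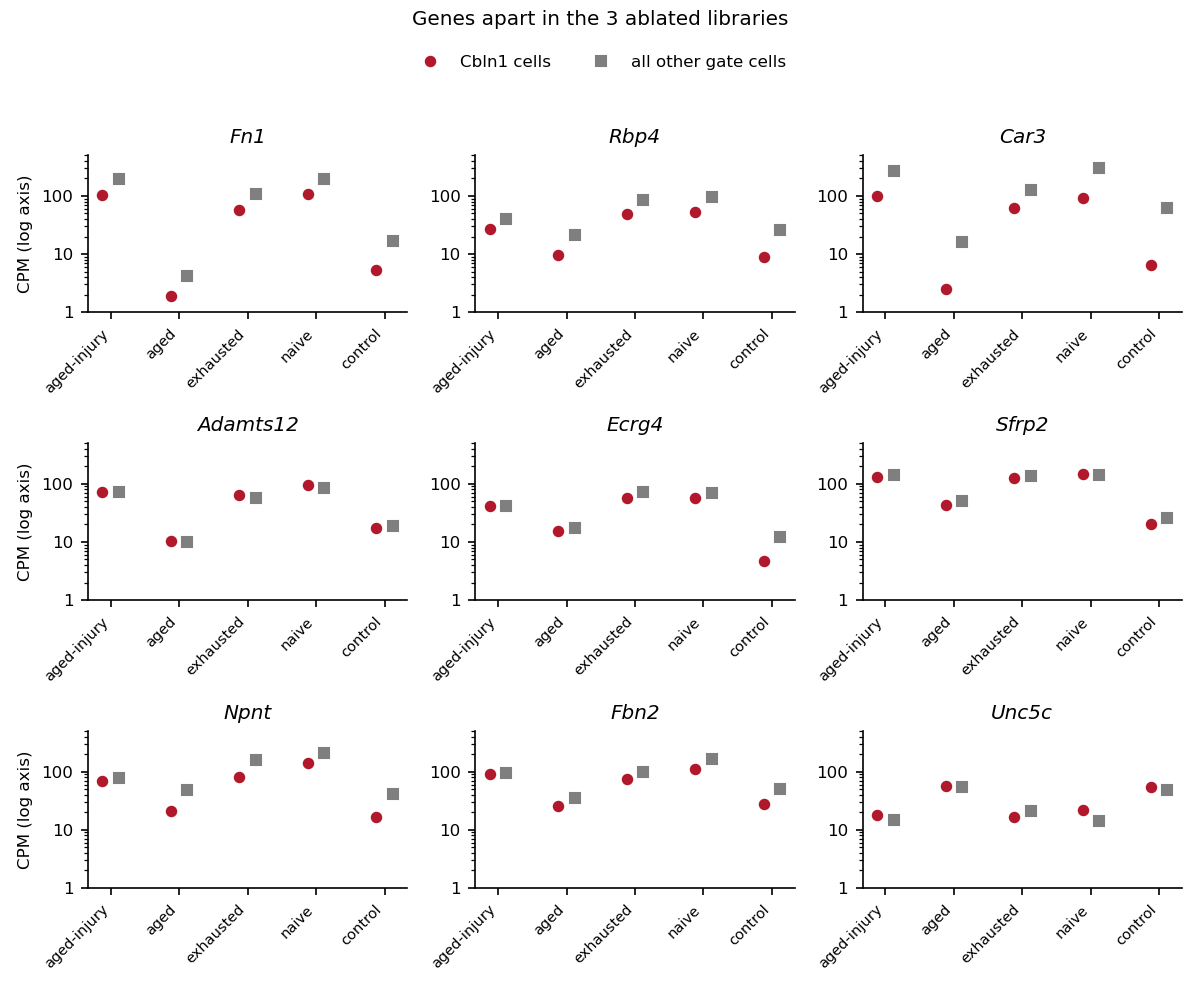
Level of the 9 genes named within the limit of 50 CPM that are at least 2-fold apart between each of the 3 ablated libraries (aged-injury, exhausted, naive) and both uninjured ones (aged, control) in Cbln1 cells. Vertical axes are CPM on a log axis, circles are Cbln1 cells and squares all other gate cells, 1 point per library. Fn1 is at 102, 56.8 and 107 CPM in Cbln1 cells of aged-injury, exhausted and naive, against 1.89 in aged and 5.38 in control, and the squares lie on the same sides as the circles.

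Ablation at 18 months went with the second-largest number of genes apart. In aged-injury against aged, 117 of 6648 genes were at least 2-fold higher (1.76%) and 59 lower (0.887%), and with TMM-scaled CPM 100 were higher and 83 lower. Spp1 was 416 CPM in aged-injury and 69.4 in aged, 6.002-fold higher (95% counting interval 5.64 to 6.39). The clock repressors Nr1d1, at 139 CPM in aged-injury and 16.2 in aged, and Nr1d2, at 87.6 CPM in aged-injury and 17.9 in aged, were also among the 6 furthest higher, with Fn1, Car3 and Adamts12. Nr1d1 was between 7.80 and 16.2 CPM in the other 4 libraries, and its level is known to swing with the hour of the day, which was not given in the labels used here. Within the limit of 50 CPM in the higher library, the furthest lower included Tenm2, a teneurin adhesion gene, at 4.46-fold lower (interval 4.06 to 4.90). They also included the carboxylesterase Ces1g at 3.22-fold lower (interval 2.94 to 3.53) and adrenomedullin (Adm), a vessel-dilating peptide, at 3.13-fold lower (interval 2.91 to 3.38). The others were Unc5c, Traf5 and the ferritin receptor Scara5.

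The uninjured old and young libraries were at least 2-fold apart in few genes. In aged against control 32 of 6385 genes were at least 2-fold higher (0.501%) and 31 lower (0.486%). Lgr5, a receptor for R-spondins, was 54.3 CPM in aged and 9.55 in control, 5.68-fold higher (95% counting interval 4.96 to 6.53). Vitronectin, Vtn, was 67.7 CPM in aged and 22.0 in control, 3.07-fold higher (95% counting interval 2.78 to 3.40). Efemp1, a fibulin of elastic matrix, was 447 CPM in aged and 183 in control, and Tenm2, Chl1 and the heat shock gene Hspa1b were the other 3 furthest higher. Lgr5 was also high in aged-injury, at 46.9 CPM, and low in exhausted, at 18.9, and naive, at 14.0. On the lower side Rgs4, a brake on G-protein signals, was 119 CPM in aged and 398 in control, 3.35-fold lower (interval 3.19 to 3.53). The collagen gene Col6a5 was 163 CPM in aged and 502 in control, and Ifitm1, an interferon-induced membrane protein, was 30.8 CPM in aged and 94.6 in control. S100a8 and S100a9, neutrophil genes, were lower too, at 15.9 and 22.5 CPM in aged and 57.0 and 77.6 in control. The neutrophil marker sum was 61.9 CPM in aged and 210.3 in control within the Cbln1 cells. S100a8 and S100a9 are on that list and part of the sum, so it is not separate from their values. Ctsc was the last of the 6.

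After 1 ablation in young mice more genes stood apart than in any other of the 5 pairs compared. In naive against control 142 of 6680 genes were at least 2-fold higher (2.13%) and 88 lower (1.32%), and in exhausted against control 70 of 6557 were higher (1.07%) and 70 lower (1.07%). With TMM-scaled CPM the split in naive against control was 110 higher and 116 lower. Both pairs share the control library. Besides Fn1, Car3, Ecrg4 and Sfrp2, which were among the furthest higher in both, the naive cells had Rbp4 6.01-fold higher (95% counting interval 5.15 to 7.03) and Npnt 8.78-fold higher (95% counting interval 7.89 to 9.77) than control. The exhausted cells had the cartilage matrix gene Comp 9.86-fold higher (95% counting interval 8.48 to 11.5) and the imprinted RNA H19 7.71-fold higher (95% counting interval 6.73 to 8.86) than control. Decorin, Dcn, a small proteoglycan, was 99.1 CPM in naive and 701 in control, 7.08-fold lower (interval 6.61 to 7.59), and 197 CPM in exhausted, 3.56-fold lower (interval 3.39 to 3.73). Cybb, a subunit of NADPH oxidase, and the heat shock genes Hspa1a and Hspa1b were among the furthest lower in both as well. Lumican (Lum) and the iron reductase Steap3 completed the 6 in naive, and Timp3 and the calcification inhibitor Mgp the 6 in exhausted.

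Few genes separated the second ablation from the first. In exhausted against naive 24 of 6644 genes were at least 2-fold higher (0.361%) and 30 lower (0.452%), and with TMM-scaled CPM 27 were higher and 19 lower. H19 was 77.6 CPM in exhausted and 12.5 in naive, 6.20-fold higher (95% counting interval 5.05 to 7.67). Steap3 was 89.3 CPM in exhausted and 16.7 in naive, 5.34-fold higher (95% counting interval 4.46 to 6.42), and Tmem37 and the interferon-induced chemokine Cxcl10 were also higher, Tmem37 with 63.0 CPM in exhausted against 19.1 in naive, and Cxcl10 with 72.1 CPM in exhausted against 22.2 in naive. The globin genes Hbb-bs and Hbb-bt, products of red cells, were also among the 6, beside an erythroid marker sum of 4019 CPM in exhausted and 1546 in naive. Both genes are part of that sum, so it is not separate from their values. The vitamin D receptor gene Vdr was 87.7 CPM in exhausted and 280.2 in naive, 3.196-fold lower (interval 2.95 to 3.47). Zbtb16, a glucocorticoid-responsive zinc finger gene, was 32.5 CPM in exhausted and 112 in naive, and Bcat1, Pde7b, Dnm3os and Angpt4 were the other 4 furthest lower. 4 of the reticular genes described above differed by less than 1.5-fold between these libraries. Chrdl1 was 1854 CPM in exhausted and 1453 in naive, Adipoq 5146 CPM in exhausted and 5106 in naive, Gdpd2 1469 CPM in exhausted and 1574 in naive, and Grem1 1975 CPM in exhausted and 2151 in naive.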

How the data were processed

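The study deposited 1 table of UMI counts per library, with genes as rows and cells as columns. The values are whole-number counts as deposited by the authors, who named Seurat 5.1 and the GRCm39 genome build, per the submitters' processing notes. The read counter was not given in the sources used here. Because a library lists only the genes detected in it, tables were joined by symbol over 30099 symbols and absent genes were set to 0. Doublets were not removed.

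Cells were kept at 500 or more genes, 1000 or more UMIs and under 25% mitochondrial UMIs, and were then assigned by the stated limits. UMIs were summed per library and arm into 10 sums. These were tested with edgeR 4.0.16 in R 4.3.3 (TMM, filterByExpr, robust quasi-likelihood test, library as a term, Benjamini-Hochberg adjustment over all genes tested, called at an adjusted p under 0.05). The pairing of arms is by origin, since both come from the same library. All genes stay in the fits, but the 7 rule genes are given as a description. DESeq2 1.42.0 was an alternative. Scripts used Python 3.11.15, numpy 2.4.6, scipy 1.17.1 and pandas 2.3.3, and the fits were tested on simulated data first. The intervals of shares are exact Clopper-Pearson intervals, a count of 0 is given the limit of 3 cells, and those of ratios between libraries cover counting error only. Within the filtered cells the sums per arm held 5706079 to 66659678 UMIs.

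The members and the gene lists were chosen with earlier results of these data known. Named genes were 29 core genes, the 12 furthest in each direction over all genes, up to 4 called members per list, and for pairs of libraries the 6 furthest in each direction. Genes named from pairs of libraries had at least 50 CPM and 50 UMIs in the higher library and a counting interval that left out 2-fold. Those named from the split of ablated and uninjured libraries had at least 50 CPM in the highest library. A gene outside this rule was chosen after its values had been seen. This holds for the list members named without values, for the genes shown by Cbln1 count and for the version without Wif1 cells.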

Additional observations from a re-analysis of the deposited data

Results flagged for a closer look

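For 48 genes the log2 ratio of Cbln1 cells over the other cells was set out by library, and a library was marked when its gap to the nearest other one took up an unusually large part of the range of the 5 (Dixon's test). Chance alone marks about 1 in 20 such sets. With 48 genes in both comparisons, the 5 sets marked were about as many as chance alone would give. They are listed as a description and not as results about these genes. For Timp3, a protease inhibitor gene, exhausted stood apart in both comparisons. Its ratio was -2.32 against limit-matched cells, with the other libraries at -1.08 to -1.04, and -2.14 against all other gate cells, with the others at -1.05 to -0.86. Naive stood apart for 3 genes against all other gate cells. Its ratio was 1.40 for Adamdec1, with the other libraries at 0.41 to 0.70. It was 0.30 for Lepr, with the others at 0.11 to 0.16, and 0.11 for Fos, with the others at 0.01 to 0.04. In all 5 sets the library marked lay on the same side of 0 as the others. The cause was not tested.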

How the results depend on the processing

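Of 99 named genes, the 78 called against all other gate cells and the 74 called against limit-matched cells kept their direction in every version of the fits. Of the others, 14 and 11 lay on either side of 0, among them Nfkbia at -0.21 to 0.10 against all others and Bmp4 at -0.11 to 0.04 against limit-matched cells. Leaving out 1 library at a time gave 151 to 257 higher and 260 to 383 lower genes against all other gate cells, and 399 to 568 higher and 505 to 589 lower against limit-matched cells. Both arms of a library are paired, and without the replicate block edgeR called 0 higher and 9 lower genes against all other gate cells (435 at an unadjusted p under 0.05) and 1 higher and 22 lower against limit-matched cells (711 at an unadjusted p under 0.05). Without a filter on low counts, which tests more genes, 601 were higher and 781 lower against all other gate cells, and 1021 higher against limit-matched cells. Without composition factors 396 were higher and 952 lower against limit-matched cells. With other cells of 0 Cbln1 UMIs, 588 were higher and 735 lower against all others. With Cxcl12 at 250 or more per 10000, 139 were higher and 286 lower against all others, and 379 and 429 against limit-matched cells. With cells of under 2 Wif1 UMIs, chosen after seeing the data, 157 and 211 were called against all others, and 263 and 292 against limit-matched cells. DESeq2 called 249 and 384 against all others, and 467 and 492 against limit-matched cells.

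The share of gate cells, in the order aged-injury, aged, exhausted, naive and control, was 61.2, 42.1, 59.7, 49.2 and 62.4% with 1 Cbln1 UMI as the limit and 46.5, 21.2, 37.4, 31.2 and 39.8% with 3. It was 42.9, 23.6, 41.8, 33.2 and 39.2% after thinning and 58.2, 31.3, 50.8, 42.6 and 53.4% with Cxcl12 at 250 or more. With 2 UMIs per 10000 as the limit it was 51.3% in aged-injury, 31.4% in aged, 50.4% in exhausted, 39.1% in naive and 49.5% in control. With a mitochondrial share under 10% it was 54.0% in aged-injury, 32.1% in aged, 51.4% in exhausted, 43.3% in naive and 53.4% in control. Aged was lowest in each of these, and control rather than aged-injury was highest with 1 UMI. At 50 or more CPM, the genes 2-fold higher and lower were 63 and 23 in aged-injury against aged, 8 and 17 in aged against control, 12 and 13 in exhausted against naive, 33 and 38 in exhausted against control, and 77 and 51 in naive against control. With TMM scaling 27 genes were higher and 19 lower in exhausted against naive, and between all ablated and both uninjured libraries 1468 and 1248 genes were higher and lower with no overlap. Single libraries, unknown numbers of animals and unremoved doublets limit all values, and depth limits genes of a few CPM.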

Other observations

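Among the Cbln1 cells themselves, 2912 genes of at least 50 CPM in every library were ranked by the ratio of their cell-to-cell variance to the variance of counting alone. The genes named here were chosen after the ranks had been seen. This ratio, which all values below give, had a median of 1.51 over genes. At an equal relative spread it is larger for a gene of higher level. The ranks and the differences between libraries therefore also depend on level, and the part of level was not tested. The 4 globin genes Hba-a1, Hba-a2, Hbb-bs and Hbb-bt, products of red cells, held the first 4 ranks in all 5 libraries, with Hba-a1 at 505 in aged-injury, 766 in aged, 972 in exhausted, 923 in naive and 758 in control. Igfbp5 held rank 5 or 6, at 105 in aged-injury, 89.9 in aged, 73.5 in exhausted, 90.8 in naive and 88.1 in control. Spp1 stood above it in aged-injury at 119.8, and was at 66.9 in aged, 9.52 in exhausted, 29.2 in naive and 20.5 in control. The immediate early gene Fos was at 86.2 in aged-injury, 59.4 in aged, 71.1 in exhausted, 81.4 in naive and 68.1 in control. Cxcl9, an interferon-induced chemokine, was highest in aged at 94.5, above Igfbp5 there, and lowest in naive at 36.7. Ibsp, a bone matrix protein, was at 35.3 in aged-injury, 24.0 in aged, 32.2 in exhausted, 44.9 in naive and 24.0 in control. The part of free RNA, doublets and cell state in these spreads was not tested.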
